A study of Homo sapiens with 42 samples.

Results

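PC9 cells given AZD5153 for 3 days were compared by ATAC-seq, with prior osimertinib (combo) and without it (AZD5153). PC9 is a human lung adenocarcinoma line whose growth depends on a mutated EGFR. Combo cells had 500 nM osimertinib for 21 days and then 150 nM AZD5153 for 3 days. AZD5153 cells spent the same 21 days without drug before the 3 days of 150 nM AZD5153. The labels do not say whether osimertinib stayed in the medium of combo cells during those last 3 days. The comparison used 6 of the 42 libraries of the series, 3 per group, and chromatin accessibility was read as counts in regions of 502 bases. A further 6 PC9 libraries served to set this effect of osimertinib beside the one measured without AZD5153. They were DTP cells, held in 500 nM osimertinib for 24 days, and DMSO cells, kept 21 days without drug and then 3 days in DMSO. DTP stands for drug-tolerant persister. The titles and the design text name ATAC-seq, whereas the extraction protocol of the labels describes immunoprecipitation of acetylated H3K27, and the values were read as ATAC-seq.

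Osimertinib blocks the kinase of mutant EGFR and thereby its signal through RAS, RAF, MEK and ERK. AZD5153 is an inhibitor of BET proteins, which bind acetylated histones at enhancers and promoters and bring the elongation kinase P-TEFb to transcribed genes. ERK signalling raises AP-1 factors, which bind open enhancers, and it induces its own inhibitors, among them the DUSP phosphatases and the SPRY and SPRED proteins. ATAC-seq reports where DNA is open to a transposase, mostly at promoters and enhancers. In a bulk library a larger share of cells with an open region and a wider opening in each cell cannot be told apart.

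Total counts were 4741173 to 5125972 in combo and 5002523 to 5193390 in AZD5153. The libraries of a group lay close to counting noise: the variance of the difference between replicates was 0.981 to 1.02 times the Poisson value in combo and 0.961 to 0.995 times in AZD5153, with no difference by a chi-square test in 2 of 3 and 3 of 3 pairs. The labels name biological triplicates, but at this spread p-values may measure technical error only. For this reason the main counts of regions are followed by ones in which the 3 libraries of a group were added up and taken as 1 sample, with the dispersion of the HCC2935 libraries, whose biological coefficient of variation was 10.1% against 0.988% in PC9. Promoter regions were found for 7 of 7 epithelial markers, at 17.5 to 45.9 CPM (counts scaled to a library of 1e6) where the median promoter had 8.34 CPM. None of 4 immune markers had an annotated promoter region, and neither did NAPSA, SFTPB and SFTPC among 6 markers of lung adenocarcinoma. Promoter regions of 2 of 3 endothelial markers ranged over 2.34 to 12.4 CPM, and those of 2 of 4 fibroblast markers over 0.639 to 24.7 CPM.

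Prior osimertinib shifted accessibility widely and in both directions. Of 126506 regions tested, 54331 (42.9%) differed between combo and AZD5153 at an adjusted p under 0.05, with 28589 (22.6%) higher and 25742 (20.3%) lower in combo. The median size of the change was a log2 fold change of 0.91 among the higher regions and -1.03 among the lower ones. All 3 combo libraries lay outside the range of the 3 AZD5153 libraries in 63269 regions (50% of those tested). With libraries summed per group, 36489 regions (28.8%) were called, 18220 higher and 18269 lower, so the small excess of higher regions did not remain. The number of peaks did not separate the groups, with 163828, 151406 and 157867 peaks in combo and 149810, 156405 and 166237 in AZD5153. Their difference was 216 peaks (exact two-sided permutation test, p = 1, where 0.1 is the smallest p that 3 against 3 libraries allow). Counted at a -log10 q of at least 5, combo had a mean of 60915 peaks and AZD5153 one of 73777 (p = 0.1 in the same exact permutation test).

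Of the 69565 regions that carried the authors' gene annotation, 18526 (26.6%) were higher and 16847 (24.2%) lower in combo, and the balance depended on the distance from a gene's start. Regions spanning a transcription start were mostly higher when called, 33.6% against 9.24% lower of 17338. Of the 29359 regions of the class Promoter (<=1kb), 28.2% were higher and 12.5% lower. Away from the starts the order turned: 34.8% of 16658 intron regions were lower and 26.4% higher, and 31.6% of 13198 distal intergenic regions were lower and 24.7% higher. Promoter classes together made up 53.1% of the higher regions, 34.4% of the lower ones and 59.1% of those not called. The median log2 fold change was 0.12 over Promoter (<=1kb) regions and -0.13 over introns. Called promoter changes were smaller: a log2 fold change of at least 1 was reached by 1164 of 8269 higher Promoter (<=1kb) regions. In introns it was reached by 2317 of 4394 higher regions. Among lower regions the counts were 972 of 3677 and 3137 of 5793. Among annotated regions with a log2 fold change of at least 1 in size, 6174 were higher (8.88%) and 7563 lower (10.9%), and the promoter share was 30.2% of the higher and 25.9% of the lower. With libraries summed, 10488 annotated regions were higher (15.1%) and 11272 lower (16.2%), and promoters within 1 kb kept their order, at 10.3% higher and 6.29% lower. Scaling by library size alone moved the median of all tested regions by -0.06 and gave 23.4% higher and 15.0% lower for these promoters.

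**Figure D1:**
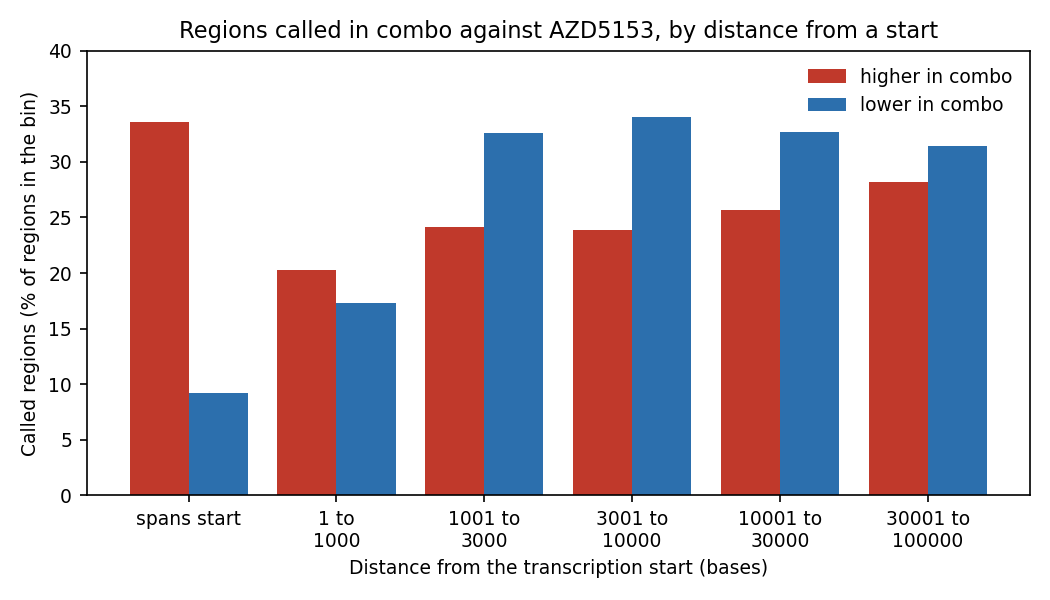
Percentage of annotated regions higher (red) or lower (blue) in combo than in AZD5153 at an adjusted p under 0.05, by the distance of the region from the nearest transcription start in bases. Regions spanning a start were higher in 33.6% and lower in 9.24%, while every bin beyond 1000 bases held more lower than higher regions.

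Among promoters that overlapped a RefSeq promoter window, those that lost accessibility carried AP-1 motifs more often than those that gained it. Of the Promoter (<=1kb) regions, 11345 overlapped the RefSeq promoter of their gene, a window from 250 bases before to 50 after a start in GRCh38.p14, and 16 short motifs were searched in those windows on both strands. Such a window was overlapped by 776 of the 3677 lower and 4090 of the 8269 higher Promoter (<=1kb) regions. The motif shares thus cover a smaller part of the lower regions than of the higher ones. The AP-1 motif TGANTCA was present in 19.6% of the 776 lower promoters, 3.5% of the 4090 higher and 4.88% of those not called. Its share of all RefSeq promoters was 7.68%. Among promoters with a log2 fold change of at least 1 in size it was present in 41.5% of 123 lower and 5.34% of 281 higher promoters. Those 123 and 281 came from 972 lower and 1164 higher Promoter (<=1kb) regions with changes of this size. Read the other way, 24.9% of the 611 promoters with the motif were lower and 23.4% higher, against 5.81% lower and 36.8% higher without it. Over all Promoter (<=1kb) regions, with or without such a window, 12.5% were lower and 28.2% higher. The TEAD motif GGAATG was in 14.3% of lower and 10.4% of higher promoters, and in 26.0% of the strongly lower ones. The order was opposite for the ETS motif CCGGAA, in 14.7% of lower and 31.4% of higher promoters, for the SP/KLF motif GGGCGG, at 61.9% and 77.6%, and for the E-box CACGTG, at 4.64% and 11.2%. The CRE motif TGACGTCA, which differs from the AP-1 letters by the length of its centre, was in 0.515% of lower and 3.15% of higher promoters. Base composition differed by direction among the strongly changed promoters, with a median GC content of 55.3% in lower and 72.3% in higher ones. Over all called promoters it was nearly equal, at 65.7% in lower and 66% in higher ones, beside 68% in those not called. The parts of base composition and of the unequal overlap with windows in the motif shares were not tested.

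**Figure D2:**
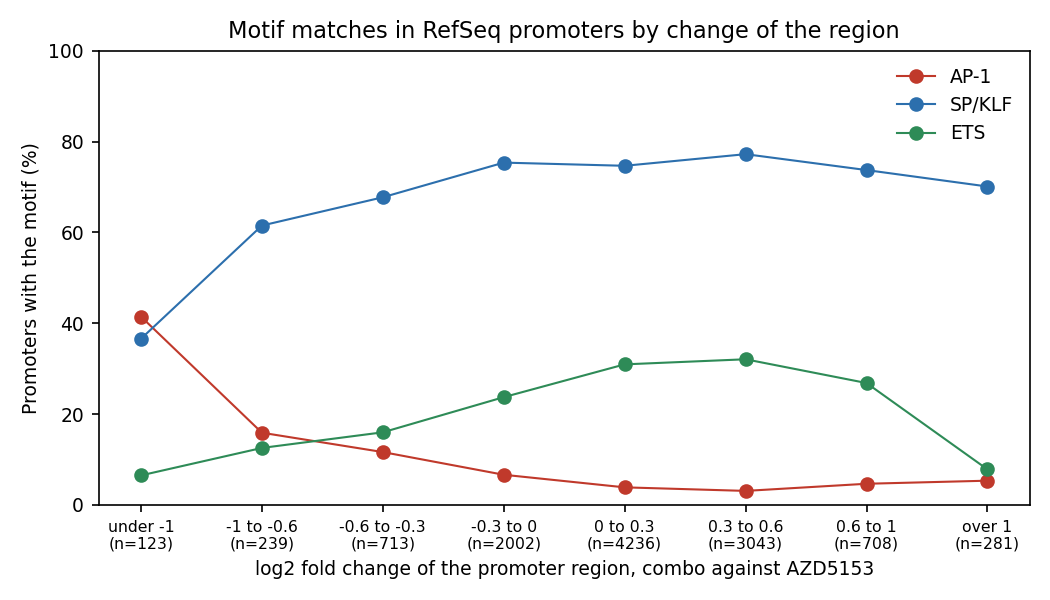
Percentage of RefSeq promoters holding at least 1 match to the AP-1 (red), SP/KLF (blue) or ETS (green) motif, by the log2 fold change of the overlapping region in combo against AZD5153, with the number of promoters in each bin. The AP-1 share fell from 41.5% below a log2 fold change of -1 to 3.09% between 0.3 and 0.6.

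The RefSeq promoters below show what these windows hold. They are the 3 with the largest falls and the 3 with the largest rises among promoters whose libraries did not overlap between the groups and whose level was above the median, chosen after the motif shares were known. Each is printed 5′ to 3′ along the gene from chr5:150497529-150497828, plus strand (NDST1), chr1:153030953-153031252, plus strand (SPRR1B), chr1:111563913-111564212, minus strand (TMIGD3), chr11:27040565-27040864, plus strand (BBOX1), chr4:7872259-7872558, minus strand (AFAP1) and chr20:59996124-59996423, plus strand (CDH26). Capitals mark matches to the AP-1 motif TGANTCA and the SP/KLF motif GGGCGG on either strand.
NDST1: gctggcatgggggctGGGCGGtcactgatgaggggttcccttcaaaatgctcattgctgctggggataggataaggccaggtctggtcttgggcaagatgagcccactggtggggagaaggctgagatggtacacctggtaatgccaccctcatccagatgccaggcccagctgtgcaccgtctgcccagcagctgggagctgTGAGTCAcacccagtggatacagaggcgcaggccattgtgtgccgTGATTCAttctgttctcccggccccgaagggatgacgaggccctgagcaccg
SPRR1B: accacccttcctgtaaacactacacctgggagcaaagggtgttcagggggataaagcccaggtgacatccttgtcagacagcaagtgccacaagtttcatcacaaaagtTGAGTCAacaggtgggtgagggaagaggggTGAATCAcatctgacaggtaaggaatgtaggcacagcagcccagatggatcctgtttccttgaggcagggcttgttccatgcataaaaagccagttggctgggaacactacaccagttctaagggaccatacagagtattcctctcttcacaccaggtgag
TMIGD3: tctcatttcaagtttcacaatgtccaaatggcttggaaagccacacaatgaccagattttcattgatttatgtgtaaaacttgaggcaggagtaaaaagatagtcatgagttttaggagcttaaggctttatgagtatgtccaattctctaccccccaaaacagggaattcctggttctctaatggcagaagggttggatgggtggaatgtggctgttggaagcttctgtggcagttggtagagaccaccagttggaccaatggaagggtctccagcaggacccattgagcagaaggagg
BBOX1: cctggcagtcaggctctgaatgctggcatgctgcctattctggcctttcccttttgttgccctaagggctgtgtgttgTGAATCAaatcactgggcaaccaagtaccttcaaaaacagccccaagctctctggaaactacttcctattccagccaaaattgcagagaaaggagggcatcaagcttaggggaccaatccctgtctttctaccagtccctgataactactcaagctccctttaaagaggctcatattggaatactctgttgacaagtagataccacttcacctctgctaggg
AFAP1: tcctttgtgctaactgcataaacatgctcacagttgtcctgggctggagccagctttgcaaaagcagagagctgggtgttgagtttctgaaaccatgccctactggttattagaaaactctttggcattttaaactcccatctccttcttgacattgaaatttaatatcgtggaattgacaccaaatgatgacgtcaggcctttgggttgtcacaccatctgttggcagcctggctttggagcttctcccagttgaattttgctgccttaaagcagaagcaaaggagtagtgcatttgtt
CDH26: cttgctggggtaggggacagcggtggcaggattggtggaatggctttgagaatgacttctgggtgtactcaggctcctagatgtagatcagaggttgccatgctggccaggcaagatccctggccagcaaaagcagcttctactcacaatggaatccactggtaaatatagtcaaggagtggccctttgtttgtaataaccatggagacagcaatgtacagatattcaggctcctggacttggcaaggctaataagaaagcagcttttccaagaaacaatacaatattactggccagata
Of the falling promoters, NDST1 and SPRR1B each held 2 AP-1 matches, starting at bases 204 and 249 of the window in NDST1 and at bases 110 and 140 in SPRR1B. TMIGD3 held none. Of the rising promoters, BBOX1 held 1 AP-1 match, at base 79, which lay before the region whose counts rose. AFAP1 and CDH26 had no match to either motif. The counted regions overlapped 298 bases of the window at NDST1, 300 at SPRR1B and CDH26, 184 at TMIGD3, 200 at BBOX1 and 120 at AFAP1.

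NDST1 encodes an enzyme that sulfates heparan sulfate, and its promoter region measured 3.33, 2.13 and 1.93 CPM in combo against 26.3, 26 and 26.1 CPM in AZD5153 (log2 fold change -3.20, SE 0.17, adjusted p = 9.76e-63). SPRR1B, a precursor of the cornified envelope of squamous cells, measured 0.588, 0.426 and 1.07 CPM in combo against 6.92, 8.54 and 7.71 CPM in AZD5153 (log2 fold change -2.89, SE 0.28, adjusted p = 3.49e-21). At TMIGD3 the values were 0.588, 0.426 and 1.29 CPM in combo against 7.49, 7.8 and 8.47 CPM in AZD5153 (log2 fold change -2.84, SE 0.28, adjusted p = 7.12e-21). BBOX1, the last enzyme of carnitine synthesis, measured 9.6, 9.8 and 11.8 CPM in combo against 1.34, 1.3 and 2.45 CPM in AZD5153 (log2 fold change 2.36, SE 0.23, adjusted p = 5.71e-22). AFAP1, which cross-links actin filaments, had 13.5, 13 and 10.7 CPM in combo against 2.11, 1.3 and 3.01 CPM in AZD5153 (log2 fold change 2.34, SE 0.21, adjusted p = 4.67e-25). CDH26, a cadherin, had 4.51, 5.11 and 4.29 CPM in combo against 0.384, 0.928 and 0.752 CPM in AZD5153 (log2 fold change 2.20, SE 0.31, adjusted p = 5.74e-11). These rises were smaller than the falls above in log2 units, and the lack of overlap between groups in all 6 promoters follows from how they were chosen.

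Each region below is named by the gene with the nearest start, which need not be the gene whose intron or exon it lies in. The largest rises anywhere in the annotated regions took sites from 0 to 0.941 CPM in AZD5153 cells to 9.43 to 30.9 CPM in combo cells. A region 2290 bases before the start of GRM8, a metabotropic glutamate receptor gene (chr7:126449478-126449979), had 17, 14.1 and 15.4 CPM in combo and 0, 0.186 and 0 CPM in AZD5153. With 1 count in all of AZD5153, the ratio was 247, with a 95% exact binomial interval of 44.0 to 9815 that covers counting error only. GABRE encodes a subunit of the GABA-A receptor, and an intergenic region 14113 bases before its start (chrX:151988793-151989294) had 18.6, 20.9 and 16.9 CPM in combo and 0.384, 0 and 0.564 CPM in AZD5153 (log2 fold change 4.74, SE 0.25, adjusted p = 1.11e-64). Both regions were also low in DMSO and open in DTP, with 7.01, 8.9 and 8.63 CPM in DTP and 0, 0.203 and 0.198 CPM in DMSO for GRM8 and 8.95, 12.6 and 14.3 CPM in DTP and 0.508, 0.609 and 0.198 CPM in DMSO for GABRE. An intron region assigned to the antisense transcript PLPPR5-AS1 (chr1:98963381-98963882) had 21.2, 20.9 and 21.6 CPM in combo and 0.576, 0.743 and 0.188 CPM in AZD5153 (log2 fold change 4.57, SE 0.23, adjusted p = 5.55e-70). For the zinc finger gene ZNF439, an exon region (chr19:11856508-11857009) had 13.9, 15.3 and 9.43 CPM in combo and 0.192, 0.186 and 0.188 CPM in AZD5153, a ratio of 68.5 with an interval of 23.1 to 335, from 3 counts in all of AZD5153.

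BTG2, a p53 target that restrains proliferation, showed another order of the groups. The intergenic region 10981 bases past its start (chr1:203316500-203317001) had 28.8, 30.2 and 30.9 CPM in combo and 0.768, 0.557 and 0.941 CPM in AZD5153 (log2 fold change 4.71, SE 0.20, adjusted p = 1.04e-92), with 20.4, 23.8 and 26.5 CPM in DTP and 9.15, 12 and 10.1 CPM in DMSO. Here AZD5153 cells were the lowest group, below DMSO as well as below the cells given osimertinib.

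The largest falls were the mirror of this, with sites at 11.3 to 46.3 CPM in AZD5153 cells and 0 to 3.92 CPM in combo cells. ABTB2 encodes a protein with ankyrin repeats and a BTB domain, and an intron region assigned to it (chr11:34204883-34205384) had 1.18, 0.426 and 1.5 CPM in combo and 26.9, 26.4 and 26.7 CPM in AZD5153 (log2 fold change -4.23, SE 0.20, adjusted p = 3.32e-77). Its DTP libraries lay between, at 7.4, 9.31 and 6.02 CPM, with 37.1, 36.1 and 29.4 CPM in DMSO. A region 1826 bases before CRCP (chr7:66148336-66148837), a subunit gene of RNA polymerase III, had 0.588, 0 and 0.643 CPM in combo and 12.5, 14.8 and 11.7 CPM in AZD5153 (log2 fold change -4.03, SE 0.27, adjusted p = 2.36e-42). FLRT3, a cell adhesion gene, had 0.98, 0.426 and 0.214 CPM in combo and 12.7, 15.4 and 14.7 CPM in AZD5153 at an intron region (chr20:14288861-14289362; log2 fold change -3.94, SE 0.26, adjusted p = 8.88e-45). For IQGAP3, which encodes a scaffold protein of the cytoskeleton, the values at an exon region (chr1:156551829-156552330) were 0.784, 0.639 and 0.214 CPM in combo and 15, 16 and 11.3 CPM in AZD5153 (log2 fold change -3.92, SE 0.26, adjusted p = 4.96e-44). MAEA encodes a subunit of an E3 ubiquitin ligase, and an exon region assigned to it (chr4:1337564-1338065) had 3.92, 1.28 and 2.36 CPM in combo and 41.1, 45.3 and 46.3 CPM in AZD5153 (log2 fold change -3.91, SE 0.15, adjusted p = 1.21e-107). Its DMSO libraries had 10.7, 8.52 and 9.53 CPM, so AZD5153 cells stood above the other 3 groups. They did so at CRCP, FLRT3 and IQGAP3 as well, where the DMSO libraries had 4.56 to 9.41 CPM.

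**Figure D3:**
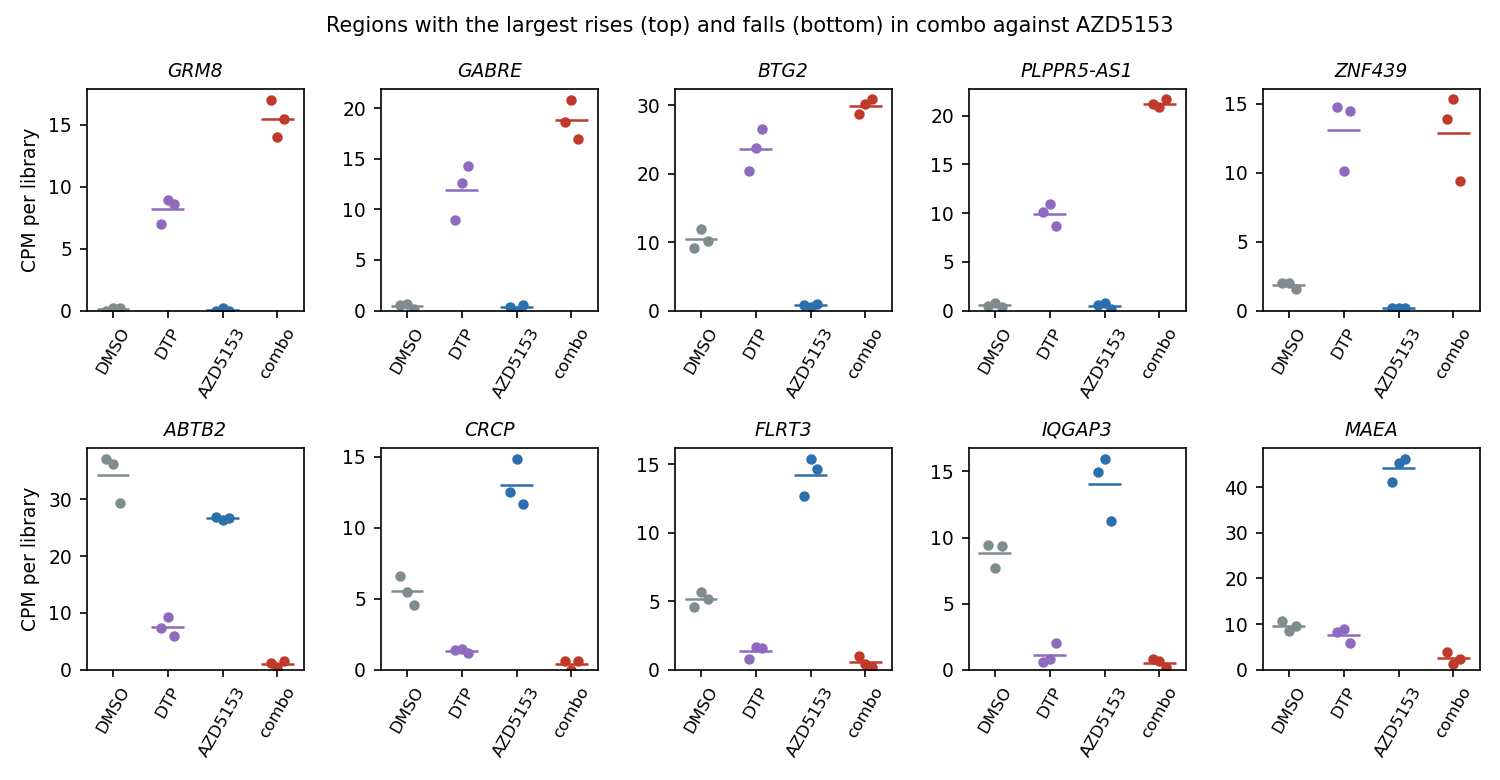
CPM per library (points) and group mean (line) in DMSO, DTP, AZD5153 and combo, 3 libraries each, for the 5 annotated regions with the largest rise (top) and the 5 with the largest fall (bottom), titled by gene. In each panel the combo and AZD5153 points do not overlap, as the choice of regions required, and at MAEA, CRCP, FLRT3 and IQGAP3 the AZD5153 libraries lie above those of the other 3 groups.

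Within 1 kb of a start the largest rises lay at TGFBR3, NR1I3, INPP5K, CDC42EP3 and THADA, with log2 fold changes of 3.15 to 3.84. TGFBR3 encodes a co-receptor of TGF-beta, and its region (chr1:91765251-91765752) had 10.4, 9.8 and 9.43 CPM in combo and 0.192, 0.186 and 0.564 CPM in AZD5153. NR1I3, the nuclear receptor CAR that senses foreign compounds, had 17.6, 19.4 and 23.6 CPM in combo and 1.73, 0.928 and 0.941 CPM in AZD5153 at a region spanning a start (chr1:161236068-161236569), with 13.2, 9.53 and 10.5 CPM in DMSO. INPP5K, a phosphatase of inositol phosphates, had 8.81, 13.8 and 14.8 CPM in combo and 0.961, 0.371 and 0.752 CPM in AZD5153 (chr17:1495213-1495714), with 10.4, 10.1 and 7.14 CPM in DMSO. At NR1I3 and INPP5K the closed group was AZD5153, and DMSO cells were open. CDC42EP3, an effector of CDC42, had 10.2, 9.8 and 10.3 CPM in combo and 0.961, 0.743 and 0.188 CPM in AZD5153 (chr2:37738245-37738746), with 12.7, 9.72 and 7.83 CPM in DTP and 0.508, 1.01 and 0.198 CPM in DMSO. The largest falls near a start were at TRIO, ATOX1, IKBKB, MAP4 and ZFAND2A, with log2 fold changes of -3.73 to -3.37. TRIO, an exchange factor for small GTPases, had 0.784, 1.06 and 0.857 CPM in combo and 18.6, 15.8 and 16.2 CPM in AZD5153 (chr5:14406468-14406969). IKBKB, a kinase that activates NF-kB, had 0.392, 0.852 and 1.07 CPM in combo and 14.2, 11.9 and 12 CPM in AZD5153. Combo libraries, at 0 to 2.35 CPM, also lay below the DMSO libraries of these 5 promoters, at 4.26 to 14.2 CPM. Of the 20 regions with the largest changes overall and near starts, the 10 that rose held a peak in 3 of 3 combo libraries, and the 10 that fell held one in 3 of 3 AZD5153 libraries. The choice of regions with high counts in these same libraries favours such peaks, and the share over all regions was not counted.

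Several genes changed at many regions together. In each direction 7 genes shared or passed the fourth place by this count, and those described were taken from the first 4 by count and name. MGAT3, which adds the bisecting N-acetylglucosamine to N-glycans, had 11 of 13 regions higher and none lower, 9 of them with a log2 fold change of at least 1. Summed over the 13 regions, its libraries had 186, 185 and 185 CPM in combo and 57, 59 and 58.9 CPM in AZD5153. ST3GAL4, a sialyltransferase, had 8 of 11 regions higher and none lower, and CYP4B1, a cytochrome P450, 6 of 9 higher and none lower. TNS3, a tensin of focal adhesions, was mixed, with 14 of 35 regions higher and 10 lower, and all 7 changes of at least 1 in size upward. In the other direction, COL13A1, a transmembrane collagen, had 15 of 22 lower and EMP1, an epithelial membrane protein, 17 of 28 lower, each with 2 higher. HPCAL1, a neuronal calcium sensor, had 18 of 24 lower and 2 higher, with sums of 152, 149 and 148 CPM in combo and 284, 281 and 275 CPM in AZD5153. HPCAL1 lies on chromosome 2 between 10 and 20 Mb, where the median of all 533 regions was a log2 fold change of -0.35, the lowest of 298 bins of 10 Mb. All bins of this chromosome from 0 to 80 Mb had lowered medians, of -0.35 to -0.16. The SPRED2, CRIM1 and EPCAM regions described below lie in this stretch, in bins with medians of -0.20, -0.21 and -0.24. After removal of the bin medians HPCAL1 kept 13 lower regions, with 5 higher. The bin medians ran up to 0.68, on chromosome 19 between 20 and 30 Mb.

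Genes of the MAPK feedback circuit were the list with the largest share of lower regions. This list of ERK-induced inhibitors and early ERK targets had 145 regions near 18 genes, of which 68 (46.9%) were lower and 24 (16.6%) higher in combo, beside 24.2% and 26.6% of all annotated regions. Its median log2 fold change was -0.36 beside 0.02. At its promoters 33 of 76 were lower and 13 higher, beside 16.2% lower and 27.4% higher of the 35841 regions of all promoter classes. The direction was the same with libraries summed, with 47 lower and 10 higher, and with bin medians removed, with 64 lower and 27 higher. In DTP against DMSO, 50 of the same regions were lower and 18 higher, beside 21.5% lower and 16.5% higher of all annotated regions in that contrast. The genes described in the lists beyond each list's largest rise and fall were chosen after their values were seen.

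SPRED2, an inhibitor of RAF activation, had 13 of 18 regions lower and 3 higher, and its regions summed to 99.7, 96.5 and 94.5 CPM in combo and 160, 168 and 153 CPM in AZD5153. It lies on chromosome 2 between 60 and 70 Mb, where the bin median was -0.20. DUSP6, the phosphatase of cytoplasmic ERK, had 5 of 6 regions lower and none higher, with 38.4, 27.9 and 35.1 CPM in combo and 59.4, 60.1 and 61 CPM in AZD5153. EGR3, an early growth response factor, had 6 of 9 lower and none higher. SPRY4 had 4 of 7 lower and 1 higher. The groups did not overlap in the sums of SPRED2, DUSP6, EGR3 and SPRY4. Single regions did not overlap in 50% of all those tested, and the share of all genes with such sums was not counted. DUSP4, a nuclear phosphatase of ERK, did not share this order, with 3 of 11 regions lower, 1 higher and a median log2 fold change of 0.25, and EGR1 had 2 of 3 higher and 1 lower. The largest fall in the list was at an intergenic region of DUSP5 (chr10:110512693-110513194), with 0.196, 0.213 and 0.857 CPM in combo and 3.65, 4.64 and 4.14 CPM in AZD5153 (log2 fold change -2.47, SE 0.34, adjusted p = 2.82e-11). The largest rise was also assigned to SPRED2, at an exon region 21221 bases upstream of its nearest start (chr2:65453858-65454359), with 9.4, 9.16 and 11.6 CPM in combo and 0.961, 0.928 and 1.32 CPM in AZD5153 (log2 fold change 2.82, SE 0.25, adjusted p = 5.71e-26). That region had 7.37, 7.91 and 10.3 CPM in DMSO, so it was low in AZD5153 cells only among the 4 groups.

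The receptor and its ligands showed mixed changes from gene to gene. EGFR had 11 of 36 regions higher and 17 lower, with a range of log2 fold changes from -2.71 to 2.91. HBEGF, a ligand induced by ERK, had 5 of 7 regions lower and none higher, with sums of 40.2, 37.3 and 43.5 CPM in combo and 74.5, 84.1 and 76.4 CPM in AZD5153. For TGFA 4 of 9 were lower, whereas AREG had 1 of 3 higher. Over the whole EGFR list 42 of 117 regions (35.9%) were lower and 21 (17.95%) higher. The list thus leaned down, beside 24.2% lower and 26.6% higher of all annotated regions. Its extremes lay at the ubiquitin ligases CBL and CBLB: the CBL region (chr11:119202543-119203044) had 7.64, 5.75 and 4.29 CPM in combo and 0.576, 0.557 and 0 CPM in AZD5153 (log2 fold change 3.02, SE 0.32, adjusted p = 2.95e-18), and the CBLB region (chr3:105823398-105823899) 0.588, 0.852 and 0.214 CPM in combo and 8.84, 4.83 and 6.4 CPM in AZD5153 (log2 fold change -2.88, SE 0.30, adjusted p = 1.03e-18). Among other receptor tyrosine kinases, 33 of 122 regions were higher and 37 lower. AXL had 4 of 5 lower, with sums of 15.1, 18.7 and 21.2 CPM in combo and 42.3, 38.1 and 39.5 CPM in AZD5153, and RET 5 of 8 higher, with 52.7, 55.4 and 56.8 CPM in combo and 38.6, 41 and 36.3 CPM in AZD5153. An intron region assigned to MET (chr7:116783717-116784218) had 7.05, 7.03 and 6 CPM in combo and 0.384, 0.743 and 0.188 CPM in AZD5153 (log2 fold change 3.07, SE 0.31, adjusted p = 8.34e-21), and 8.95, 5.59 and 6.83 CPM in DTP and 7.88, 4.67 and 8.34 CPM in DMSO. It was open in every group except AZD5153. The largest fall in this list was at an intron region assigned to MERTK (chr2:111973189-111973690), with 2.15, 0.852 and 0.429 CPM in combo and 8.45, 7.8 and 4.51 CPM in AZD5153 (log2 fold change -2.21, SE 0.27, adjusted p = 5.26e-14).

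AP-1 genes themselves were close to balance, with 29 of 117 regions higher and 34 lower. FOSL1, an AP-1 subunit induced by ERK, stood out downward with 3 of 4 regions lower and sums of 43.7, 44.1 and 44.8 CPM in combo and 84, 83.4 and 79.2 CPM in AZD5153, and BATF3 had 5 of 6 lower. JDP2, a repressor of AP-1, had 8 of 16 higher and 3 lower, and its most raised region (chr14:75379826-75380327) had 8.42, 6.6 and 8.36 CPM in combo and 0.768, 0.371 and 0.752 CPM in AZD5153 (log2 fold change 2.99, SE 0.28, adjusted p = 1.42e-22). The strongest fall in the list, at BATF3 (chr1:212667372-212667873), had 3.72, 5.11 and 4.72 CPM in combo and 12.3, 15.4 and 17.1 CPM in AZD5153 (log2 fold change -1.65, SE 0.17, adjusted p = 1.11e-18). Genes of the YAP/TEAD pathway had 47 of 172 regions higher and 40 lower, near the background in both directions. Its largest rise lay upstream of CCN2 and its largest fall at CRIM1, where the region (chr2:36377038-36377539) had 1.96, 1.92 and 2.14 CPM in combo and 23.6, 26.6 and 23.3 CPM in AZD5153 (log2 fold change -3.37, SE 0.18, adjusted p = 3.14e-62).

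Matrix and adhesion genes leaned down. Of 183 regions of collagens, laminins and integrins, 71 (38.8%) were lower and 36 (19.7%) higher, with a median of -0.17. LAMB3, a laminin chain of the epithelial basement membrane, had 3 of 6 lower and none higher. The largest fall in the list was near LAMB3 (chr1:209655728-209656229), with 1.57, 3.41 and 1.29 CPM in combo and 20.4, 20.8 and 20.3 CPM in AZD5153 (log2 fold change -3.08, SE 0.19, adjusted p = 3.52e-49). ITGA6, which pairs with ITGB4 as the laminin receptor, had 7 of 10 lower, while ITGB4 had 4 of 8 higher and 1 lower. An intron region assigned to ITGB6 (chr2:160157874-160158375), an integrin that activates TGF-beta, was the largest rise, with 14.5, 12.8 and 14.2 CPM in combo and 0.192, 0.928 and 0.188 CPM in AZD5153 (log2 fold change 4.07, SE 0.26, adjusted p = 1.86e-46). The TGF-beta and BMP list had 44 of 127 regions lower and 25 higher, with its largest fall near TGFBI (chr5:136006657-136007158), at 0.196, 0 and 0.643 CPM in combo and 4.8, 4.46 and 4.51 CPM in AZD5153 (log2 fold change -2.87, SE 0.35, adjusted p = 2.48e-14). The list of epithelial-mesenchymal transition had 36 of 123 higher and 37 lower. Its most raised region was upstream of GRHL2, an epithelial transcription factor, with 15.3, 16.8 and 15 CPM in combo and 1.54, 1.3 and 1.5 CPM in AZD5153 (log2 fold change 3.12, SE 0.21, adjusted p = 2.69e-41), and its most lowered upstream of EPCAM, with 0.588, 0.213 and 0.214 CPM in combo and 7.49, 7.61 and 4.7 CPM in AZD5153 (log2 fold change -3.22, SE 0.32, adjusted p = 6.45e-21).

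Cholesterol and fatty acid synthesis genes had 32 of 89 regions lower (36.0%) and 16 higher (18.0%). SCD, the desaturase that makes oleic acid, had 4 of 4 regions lower, with sums of 16.1, 14.5 and 13.1 CPM in combo and 28.4, 35.1 and 28.6 CPM in AZD5153, and INSIG1, which retains SREBP in the endoplasmic reticulum, 7 of 13 lower and none higher. At its promoters 14 of 56 were higher and 16 lower, where all promoter classes had 27.4% higher and 16.2% lower. The extremes were a region of HMGCS1 (chr5:43286550-43287051) with 0.392, 0.639 and 0.643 CPM in combo and 4.42, 4.27 and 5.27 CPM in AZD5153 (log2 fold change -2.40, SE 0.33, adjusted p = 8.40e-12) and an intron region assigned to SREBF2 (chr22:41863472-41863973) with 3.72, 6.17 and 5.14 CPM in combo and 0.576, 0.928 and 0.376 CPM in AZD5153 (log2 fold change 2.38, SE 0.31, adjusted p = 1.13e-12).

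Interferon and antigen presentation genes leaned up, with 28 of 65 regions higher (43.1%) and 13 lower (20%), and a median log2 fold change of 0.31. Promoters gave 14 of 36 higher and 4 lower, and with libraries summed 15 regions were higher and 8 lower. IRF1, a transcription factor of the interferon response, supplied 9 of the higher regions and 2 of the lower, of 13, with sums of 153, 157 and 167 CPM in combo and 123, 117 and 114 CPM in AZD5153. IFI6 had 2 of 2 higher, the larger rise at chr1:27686575-27687076 with 11.2, 9.58 and 8.14 CPM in combo and 3.27, 2.97 and 3.95 CPM in AZD5153 (log2 fold change 1.41, SE 0.20, adjusted p = 1.40e-10). The RNA sensor OAS1 and the signal transducer STAT2 had 1 of 2 and 2 of 3 higher and none lower. NLRC5, the activator of MHC class I genes, went the other way, with 7 of 10 regions lower and 2 higher, and a region upstream of it (chr16:57000465-57000966) had 0.784, 0.426 and 0.214 CPM in combo and 9.41, 10.2 and 8.28 CPM in AZD5153 (log2 fold change -3.45, SE 0.29, adjusted p = 9.03e-29). The list of inflammatory cytokines and NF-kB had 18 of 64 higher and 20 lower. A region upstream of IL6 (chr7:22697788-22698289) opened, with 19.2, 17 and 15.7 CPM in combo and 0.961, 1.11 and 0.941 CPM in AZD5153 (log2 fold change 3.65, SE 0.22, adjusted p = 3.55e-51), and one upstream of TNFAIP3, an inhibitor of NF-kB (chr6:137853438-137853939), closed, with 1.18, 1.49 and 1.5 CPM in combo and 11.3, 8.54 and 7.71 CPM in AZD5153 (log2 fold change -2.42, SE 0.25, adjusted p = 1.05e-19).

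**Figure D4:**
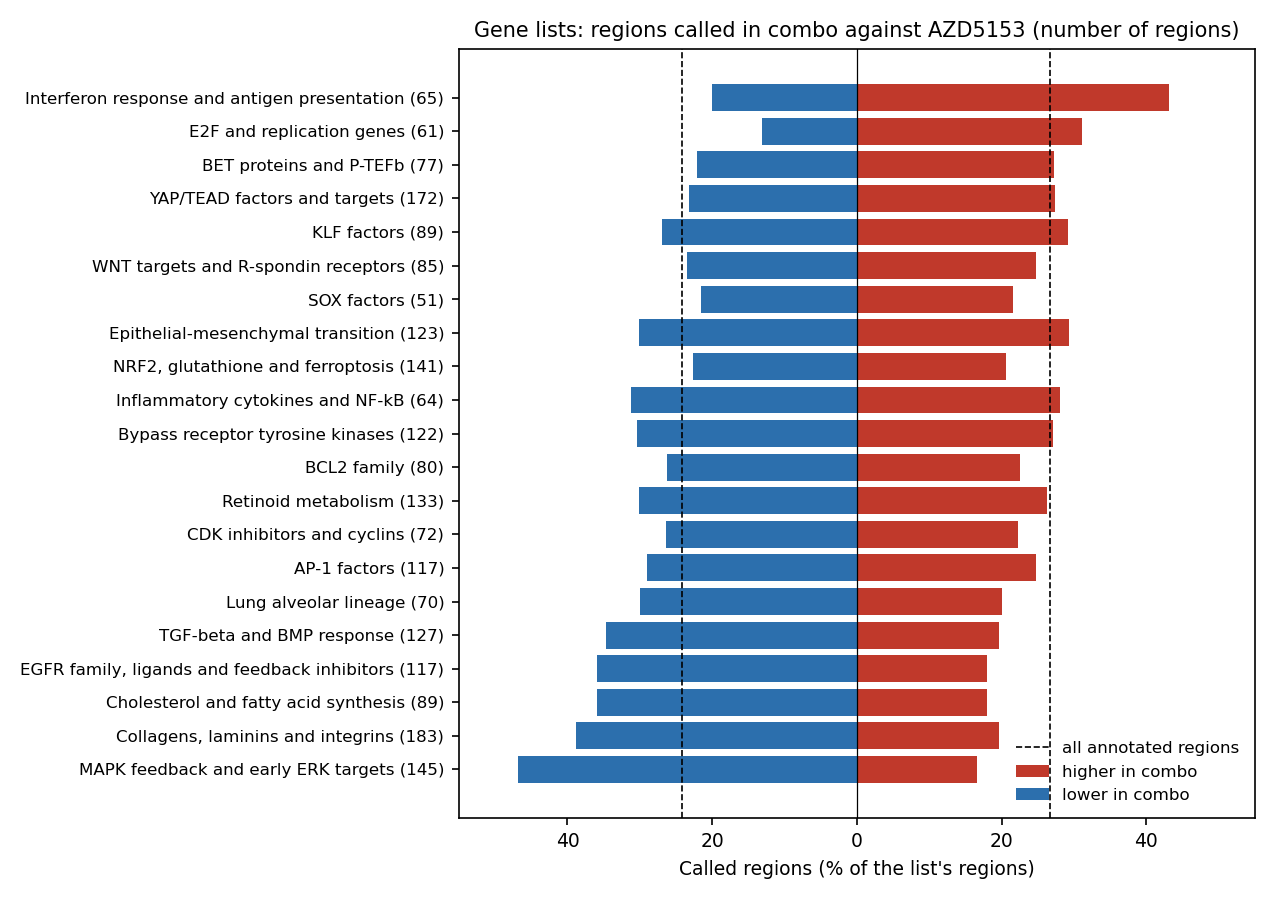
Percentage of each gene list's annotated regions higher (red, to the right) or lower (blue, to the left) in combo than in AZD5153 at an adjusted p under 0.05, with the number of regions in parentheses. Dashed lines give all annotated regions, 26.6% higher and 24.2% lower, and the MAPK feedback list reached 46.9% lower and the interferon list 43.1% higher.

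Genes of the targets of AZD5153 and their partners were more often higher than lower at promoters, but not over all their regions. BET proteins and P-TEFb genes had 17 of 46 promoter regions higher and 1 lower, beside 9834 and 5789 of 35841 over all promoter classes, while all 77 regions gave 21 higher and 17 lower, and 10 and 14 with libraries summed. HEXIM1, an inhibitor of P-TEFb, had 4 of 7 regions higher and none lower, with sums of 88.3, 89 and 86.4 CPM in combo and 66.3, 65 and 65.7 CPM in AZD5153. HEXIM2 had 3 of 4 higher. The largest fall in the list was a distal region assigned to LARP7 (chr4:112735599-112736100), with 0.784, 0.639 and 0.214 CPM in combo and 3.07, 5.01 and 3.95 CPM in AZD5153 (log2 fold change -2.21, SE 0.34, adjusted p = 1.21e-09). KLF genes had 26 of 89 regions higher and 24 lower, and 12 and 16 with libraries summed. Of their 41 promoter regions 16 were higher and 4 lower. KLF2 had 7 of 8 regions lower and 1 higher, with sums of 60.5, 56 and 60.5 CPM in combo and 117, 111 and 112 CPM in AZD5153.

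Replication genes of the E2F list had 19 of 61 regions higher and 8 lower, with a median of 0.04 that turned to -0.02 when scaled by library size alone (13 higher and 11 lower). Both MCM7 regions were higher, and RRM2, a subunit of ribonucleotide reductase, had 4 of 6 lower. Near CDK1 a distal region (chr10:60757405-60757906) had 4.9, 7.03 and 7.93 CPM in combo and 0.576, 0.186 and 0.752 CPM in AZD5153 (log2 fold change 2.94, SE 0.31, adjusted p = 3.68e-19). Cyclins and CDK inhibitors had 16 of 72 regions higher and 19 lower, beside 26.6% and 24.2% of all annotated regions. This near balance did not hold with bin medians removed, at 10 higher and 27 lower, or with libraries summed, at 4 and 11. The largest fall was at CCNE1 (chr19:29819944-29820445), with 0.196, 0.639 and 0 CPM in combo and 7.49, 9.28 and 10.5 CPM in AZD5153 (log2 fold change -3.80, SE 0.30, adjusted p = 7.76e-31). It lies in the bin of chromosome 19 whose median was raised. In the BCL2 family 18 of 80 regions were higher and 21 lower, and both extremes were in BCL2L1, which encodes BCL-XL. Its region spanning a start (chr20:31719223-31719724) had 30.9, 29.4 and 28.9 CPM in combo and 7.68, 8.91 and 9.22 CPM in AZD5153 (log2 fold change 1.74, SE 0.13, adjusted p = 2.05e-37), with 30.8, 32.2 and 29.6 CPM in DMSO. Its intron region (chr20:31696125-31696626) had 1.57, 1.06 and 2.79 CPM in combo and 14.6, 18.6 and 15.8 CPM in AZD5153 (log2 fold change -2.93, SE 0.21, adjusted p = 4.50e-39), with 17.3, 14.8 and 15.7 CPM in DMSO. The promoter was thus lowest in AZD5153 cells and the intron lowest in combo cells.

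The remaining lists were nearer the background. NRF2 and glutathione genes had 29 of 141 regions higher and 32 lower, WNT genes 21 of 85 and 20, retinoid genes 35 of 133 and 40, alveolar lineage genes 14 of 70 and 21, and SOX genes 11 of 51 and 11. The promoter of GPX2, a glutathione peroxidase (chr14:64942682-64943183), had 9.79, 8.3 and 7.07 CPM in combo and 2.31, 1.86 and 1.88 CPM in AZD5153 (log2 fold change 1.87, SE 0.23, adjusted p = 6.89e-14). TCF7, a transcription factor of the WNT pathway, rose at a region past its start (chr5:134144132-134144633), with 7.44, 6.6 and 7.93 CPM in combo and 0.192, 0.371 and 0 CPM in AZD5153, where 3 counts in all of AZD5153 gave a ratio of 38.9 with an interval of 12.9 to 191. It fell at a distal region (chr5:134092858-134093359), with 0.784, 2.13 and 1.5 CPM in combo and 6.72, 8.54 and 8.09 CPM in AZD5153 (log2 fold change -2.14, SE 0.25, adjusted p = 2.91e-15).

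The effect of osimertinib under AZD5153 was then set beside its effect without AZD5153, in DTP against DMSO, a contrast that shares no library with the first. In DTP against DMSO 40127 regions (31.7%) were called. Of the 28589 regions higher in combo, 11850 (41.5%) were also higher in DTP and 1067 lower, and of the 25742 lower in combo, 11810 (45.9%) were also lower in DTP and 546 higher. Taken from the other side, 60.5% of the 19576 regions higher in DTP and 57.5% of the 20551 lower in DTP were called the same way in combo against AZD5153. Over all regions 70.3% had the same sign in both contrasts, with a Pearson correlation of 0.64 across regions, which are not independent replicates.

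The difference between the 2 effects was significant in 17409 regions (13.8%), positive in 9248 and negative in 8161. Scaling by library size alone turned this split to 6950 positive and 9877 negative. With libraries summed it was significant in 6092 regions, 3032 and 3060 in the 2 directions. Of the regions higher in combo, the difference was positive in 6804 and negative in 215, and of those lower, negative in 6140 and positive in 213. These counts favour the contrast that chose the regions. In DTP against DMSO, 4759 of the 6804 were not called, 978 were higher and 1067 lower. Of the 6140, 4122 were not called, 1472 were lower and 546 higher. Among regions higher in DTP, the difference was positive in 978 and negative in 2366. Among those lower in DTP, it was negative in 1472 and positive in 3264. At promoters the difference was positive in 9.56% of 35841 regions and negative in 5.23%, beside 12.2% and 11.1% of 33724 other annotated regions.

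The differences named here were sought only among annotated regions called in combo against AZD5153, without overlap of these libraries and above the median level. Positive differences were largest at CALML5, a calmodulin-like gene of keratinocytes, and at the BTG2 region above. Near CALML5 (chr10:5493588-5494089) the libraries had 5.09, 5.11 and 7.5 CPM in combo and 1.15, 1.67 and 1.88 CPM in AZD5153, with 0.973, 1.66 and 1 CPM in DTP and 4.58, 5.88 and 8.34 CPM in DMSO. There osimertinib went with less accessibility in the absence of AZD5153 and with more in its presence, a difference of 3.75 in log2 units (SE 0.38, adjusted p = 2.18e-18). At BTG2 the difference was 3.58 (SE 0.28, adjusted p = 1.04e-30). Negative differences were largest at MAEA, at -3.61 (SE 0.26, adjusted p = 9.97e-35), and at LINC02517, at -3.32 (SE 0.41, adjusted p = 9.20e-13). The region of this long noncoding RNA gene (chr4:8336341-8336842) had 0.588, 0.639 and 0.429 CPM in combo and 8.45, 12.4 and 9.6 CPM in AZD5153, with 4.09, 2.69 and 2.81 CPM in DTP and 3.31, 3.04 and 4.37 CPM in DMSO. DTP and DMSO overlapped there and at MAEA, while combo and AZD5153 did not, as the choice of regions required.

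**Figure D5:**
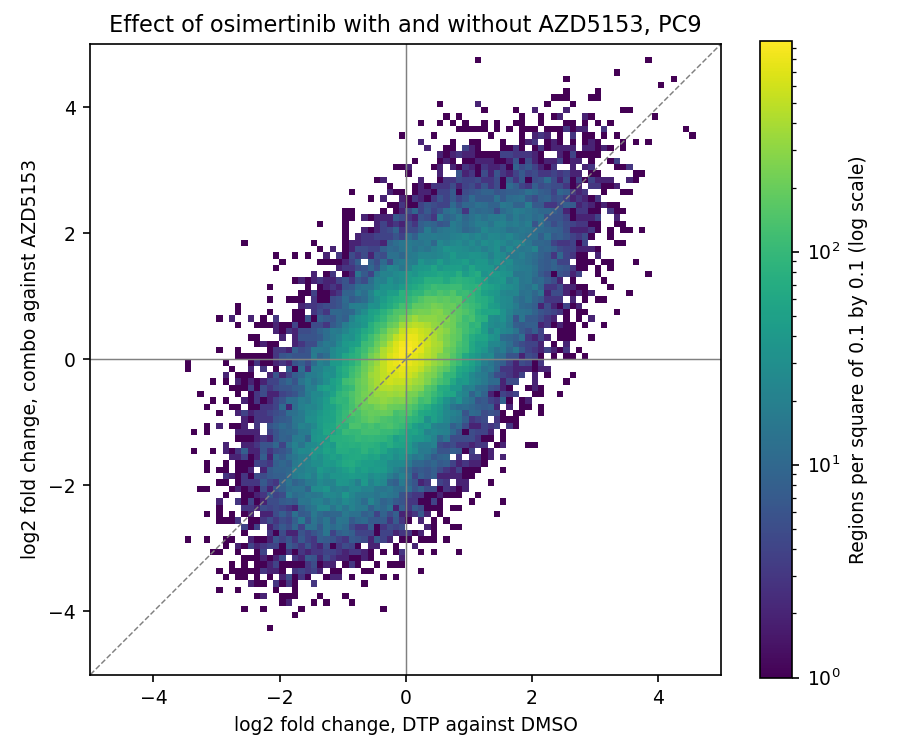
Log2 fold change of combo against AZD5153 (vertical) and of DTP against DMSO (horizontal) over the regions tested, coloured by the number of regions per square on a log scale, with the line of equal effects dashed. The cloud follows the diagonal (Pearson correlation 0.64), and 1 region lies outside the axes.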

How the data were processed

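The authors deposited, for PC9 and HCC2935, a table of raw read counts in regions of 502 bases with 1 column per library. A second PC9 table held the same counts for 69565 of the 502962 regions with gene annotation. The peak lists were deposited per library, with each peak's q value as −log10, and were not pooled. Per the labels' processing notes the build was hg38, and the tools named were BWA 0.7.17, SAMtools 1.9, deepTools 3.4, MACS2 2.2.6, featureCounts 2.0.0 and ChIPseeker 1.29.1. Whether reads were shifted for the transposase, and which duplicates were removed, are points not given in the sources used here.

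All 12 PC9 libraries were fitted at once in edgeR 4.0.16 (R 4.3.3) with group means, TMM factors, filterByExpr and a prior count of 2, with edgeR's quasi-likelihood F test for each contrast and for the difference between contrasts. A region counted as called where the p, adjusted after Benjamini-Hochberg across the 126506 regions left by the filter, was under 0.05, and all p-values of regions in the text are these unless another test is named. SE is the log2 fold change over the root of F. Levels are TMM-scaled CPM, and counts and intervals cover counting error only. Region calls were tested on simulated data with the dispersion fitted to PC9, which cannot check them against a wider biological spread. The pass limit of this test was changed after its first run, where low counts held recovery just under it. For peak numbers, an exact permutation test, two-sided, was run (scipy 1.17.1). DESeq2 1.42.0 and limma 3.58.1 served as alternatives.

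Regions were named as the 5 largest rises and falls among annotated regions that were called, did not overlap between groups, lay above the median level and sat on chromosomes 1 to 22 or X, with 1 region per gene, and likewise for Promoter (<=1kb) regions of genes that are not noncoding. Also named were the 4 genes each way with the most regions changed by a log2 of at least 1 in 1 direction (ties by name), the largest rise and fall in each of 21 gene lists, and the 2 largest differences each way from DTP against DMSO. These differences were sought among annotated regions that met the first conditions on call, overlap, level and chromosome. Some genes that these rules name are not reported here. A region is assigned to the gene with the nearest annotated start. The comparison, the gene lists and the rules were chosen with earlier results of these data known. Same-numbered deviations in combo and AZD5153 correlated at -0.0039 to 0.0077, and no pairing by replicate number was used. With replicates so close to counting noise, these correlations could not show whether the libraries were paired.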

Additional observations from a re-analysis of the deposited data

Results flagged for a closer look

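The effect of osimertinib differed between cells with and without AZD5153 in 17409 regions, by the interaction term of the edgeR fit. The choice of named regions required a call and no overlap between the combo and AZD5153 libraries. Among regions so chosen, the largest positive differences were 3.75 log2 units near CALML5 and 3.58 near BTG2. The largest negative ones were -3.61 at MAEA and -3.32 near LINC02517. At CALML5 both effects were called and had opposite signs, with log2 fold changes of 1.67 in combo against AZD5153 and -2.08 in DTP against DMSO.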

How the results depend on the processing

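Whether replicate numbers paired the libraries could not be told, because replicates lay so close to counting noise. A replicate block gave 54110 regions called in combo against AZD5153 and 17280 for the difference from DTP against DMSO. The 67 named region results kept direction and call under all alternatives run (1170 values), as far as each alternative tested them. These regions were chosen from the same libraries as the largest called changes, which favours such stability. The count of 54331 regions became 10731 (5294 higher, 5437 lower) at a mean of at least 50 counts per library, where 21207 regions were tested, and 25688 (12264 and 13424) when a log2 change of 1 or more was required. Libraries summed per group gave 18220 higher, and annotated regions alone 18995 higher. DESeq2 gave 38747. Leaving out 1 library gave 50018 to 50871. The 17409 regions of the difference became 7715 (4273 positive, 3442 negative) with DESeq2, 11210 (5282 positive) with no filter, 4468 (2066 and 2402) at a mean of 50 counts, 11096 (5348 positive) with the dispersion of HCC2935, 6092 (3032 and 3060) with libraries summed, and 10977 (4899 positive) with a log2 difference of at least 1. Leaving out 1 of 12 libraries gave 14735 to 15930. The cause of these shifts was not tested beyond the smaller number of regions or libraries that a setting itself imposes. The promoter share of higher and lower regions was 68.0% and 57.8% with a start within 10 kb, 44.6% and 21.8% for Promoter (<=1kb) alone, and 30.2% and 25.9% for regions changed by a log2 of 1 or more. The difference of 216 peaks became -12861 at a −log10 q of at least 5 (exact two-sided permutation p = 0.1, the smallest possible), and leaving out 1 library gave -3621 to 4593, with negative values of -2848 without combo replicate 1, -3621 without AZD5153 replicate 1 and -323 without AZD5153 replicate 2. With at least 50% of the region covered by a peak, 8 of the 10 risen regions had one in every combo library and 5 of the 10 fallen regions in every AZD5153 library. Of 42 list counts, 27 moved by over 1.5 times with libraries summed and 0 with scaling by library size or without 1 library.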

Other observations

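Promoters of epithelial markers were mostly higher in combo than in AZD5153, where 28.2% of all Promoter (<=1kb) regions were higher and 12.5% lower. In the quartile of tested regions with the highest level, 29.2% were higher and 21.6% lower. The promoter region of CDH1, the adhesion molecule E-cadherin, had 29.8 to 32.6 CPM in combo and 17.7 to 19.2 CPM in AZD5153 (log2 fold change 0.71, adjusted p = 2.51e-10 by edgeR), and KRT19 had 32.5 to 34.9 and 17.5 to 21.2 CPM (0.77, adjusted p = 2.97e-12). KRT8, KRT18 and ESRP1 had log2 fold changes of 0.32 to 0.38, all called. EPCAM was lower, at 21.4 to 23.2 CPM against 29.5 to 31.5 CPM (-0.46, adjusted p = 3.5e-05), in a bin of chromosome 2 with a median of -0.24. CLDN4 was not called (0.14, adjusted p = 0.159). Among markers of other cell types, the promoter of CDH5, an endothelial cadherin, had 8.94 to 12.4 CPM in combo and 2.97 to 3.46 CPM in AZD5153 (1.66, adjusted p = 8.13e-15). PECAM1, the other endothelial marker with a promoter region, was lower, at 2.34 to 3.64 against 4.09 to 5.96 CPM (-0.70, adjusted p = 0.0117). Of the fibroblast markers, PDGFRB had 0.639 to 1.96 and 4.03 to 5.01 CPM (-1.36, adjusted p = 1.13e-05), and COL1A1 was not called, at 18.2 to 20.02 and 20.4 to 24.7 CPM (-0.22, adjusted p = 0.104).

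Medians were also taken over bins of 10 Mb. The bin of chromosome 19 between 20 and 30 Mb had a median log2 fold change of 0.68 over 209 regions in combo against AZD5153 and 0.61 in DTP against DMSO, and that of chromosome 5 between 20 and 30 Mb had 0.51 and 0.57 over 117 regions. On chromosome 2 between 10 and 20 Mb the medians were -0.35 and -0.34. The other bins of chromosome 2 from 0 to 80 Mb had medians of -0.27 to -0.16 and -0.28 to -0.01.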
